A study of Sus scrofa with 20 samples.

Results

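Antioxidant enzymes and selenoproteins were examined in backfat and liver of Nanchukmacdon pigs. The 10 genes were a list of symbols set by function, with no threshold on a measured value. They were the superoxide dismutases SOD1, SOD2 and SOD3, catalase (CAT), the glutathione peroxidases GPX1, GPX3 and GPX4, selenoprotein P (SELENOP), thioredoxin reductase TXNRD1 and the quinone reductase NQO1. For 8 of the 10, a pig Ensembl identifier led to a row among the 31907 genes counted, and all 8 passed the filter on low counts that left 16275 genes. Expression of GPX1 and SELENOP was not analysed here. The RNA-seq samples were 5 backfat and 5 liver libraries from boars, recorded as WT, with a normal disease state and an age of 22 months in both tissues, and no sample had a treatment. The methods of the study give another average age for the boars. Each library was made from bulk tissue, so fewer cells of a type and less RNA per cell cannot be told apart. Libraries are named below by tissue and by the number in their column name, which is 65, 67, 69, 71 or 72 in each tissue. The question was how the transcripts of these enzymes were distributed between a fat depot and the liver.

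As background, superoxide dismutases turn superoxide into hydrogen peroxide, with SOD1 a copper and zinc enzyme of the cytosol, SOD2 a manganese enzyme of the mitochondrial matrix and SOD3 a secreted copper and zinc enzyme bound to the extracellular matrix. Hydrogen peroxide is then removed by catalase, mostly in peroxisomes, or by peroxidases that spend reduced glutathione or thioredoxin. GPX3 is the secreted glutathione peroxidase of plasma and GPX4 reduces lipid hydroperoxides inside membranes. TXNRD1 keeps cytosolic thioredoxin reduced, and NQO1 reduces quinones and is a classical target of the transcription factor NRF2. Several of these enzymes are selenoproteins: they carry selenocysteine, an amino acid read from a TGA codon that would otherwise stop translation.

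Among the 8 measured genes, GPX3, GPX4 and TXNRD1 encode selenoproteins, and the annotation marks a single selenocysteine codon in each. The coding-strand sequence around that codon is shown because it is the feature these genes share and the rest of the measured set lacks. The sequences are from RefSeq for the Sscrofa11.1 build, run 5′ to 3′, stay inside the coding part of 1 exon, and have the selenocysteine codon in capitals.
GPX3, chr16:71984076-71984130, minus strand, exon 2: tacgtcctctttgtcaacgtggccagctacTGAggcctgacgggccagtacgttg
GPX4, chr2:77322603-77322665, minus strand, exon 3: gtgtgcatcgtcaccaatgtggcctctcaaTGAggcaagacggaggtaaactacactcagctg
TXNRD1, chr5:80172260-80172298, minus strand, exon 13: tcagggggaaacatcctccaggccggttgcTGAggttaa
The selenocysteine was codon 73 of 227 in GPX3 and codon 73 of 198 in GPX4, whereas in TXNRD1 it was codon 498 of 500, next to the end of the reading frame. Aligned on the codon, the GPX3 and GPX4 windows were identical at 27 of 55 bases (49.1%).

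Counts assigned to genes were 45157114 to 61772737 per backfat library and 43820042 to 53768601 per liver library. The tissues carried their labelled markers. The summed level of 8 hepatocyte markers, as the count scaled to a common library total (CPM) without further factors, was 19615 to 84179 in liver and 215 to 722 in backfat, and that of 8 adipocyte markers was 11641 to 19573 in backfat and 181 to 915 in liver. Adiponectin (ADIPOQ) was near 0 in liver and albumin (ALB) near 0 in backfat, with medians of 0.0390 and 0.453. The adipocyte list also holds PCK1, which went the other way, with a median of 529 CPM in liver and 267 in backfat. PCK1 made up most of the adipocyte sum in liver. Liver 67 stood apart. Its 13 mitochondrially encoded genes took 44.5% of all counts, against 6.38 to 20.2% in the other 9 libraries, and its hepatocyte marker sum of 19615 compared with 63650 or more in the other 4 liver libraries. Its red cell marker sum was 1292 against 63.3 to 286 in the other livers, and that of 3 skeletal muscle markers was 114 against 0.246 to 1.12. In backfat the red cell sum was 133 to 578 and the skeletal muscle sum varied widely, from 11.7 to 573. Together the 8 genes took 0.0944% of the counts in liver 67, the lowest share of the 10 libraries, and up to 0.425% in another liver. The tissue differences of the 8 genes, the shares of SOD1, SOD3 and GPX3 and the counts over all related genes are therefore given also without liver 67.

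Of the 8 genes, GPX3, GPX4 and SOD3 were higher in backfat and CAT was higher in liver at a false discovery rate (FDR) of at most 0.05 (edgeR quasi-likelihood test, Benjamini-Hochberg adjustment over 16275 genes). SOD1, SOD2, TXNRD1 and NQO1 did not pass. Such a call was common in this contrast: 55% of all tested genes passed, 28% in the backfat direction and 27% in the liver direction, so 4 of 8 was near the background. None of the 8 was a differentially expressed gene (DEG), which here also required a log2 fold change of 2 or more in either direction, compared with 22.3% of all tested genes. By FDR alone, DESeq2 and limma-voom gave the same 4 calls as edgeR. The median log2 fold change of the 8, backfat minus liver throughout, was −0.30, beside 0.00 over all genes tested. The genes higher in backfat include both measured enzymes that are secreted, SOD3 and GPX3.

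**Figure D1:**
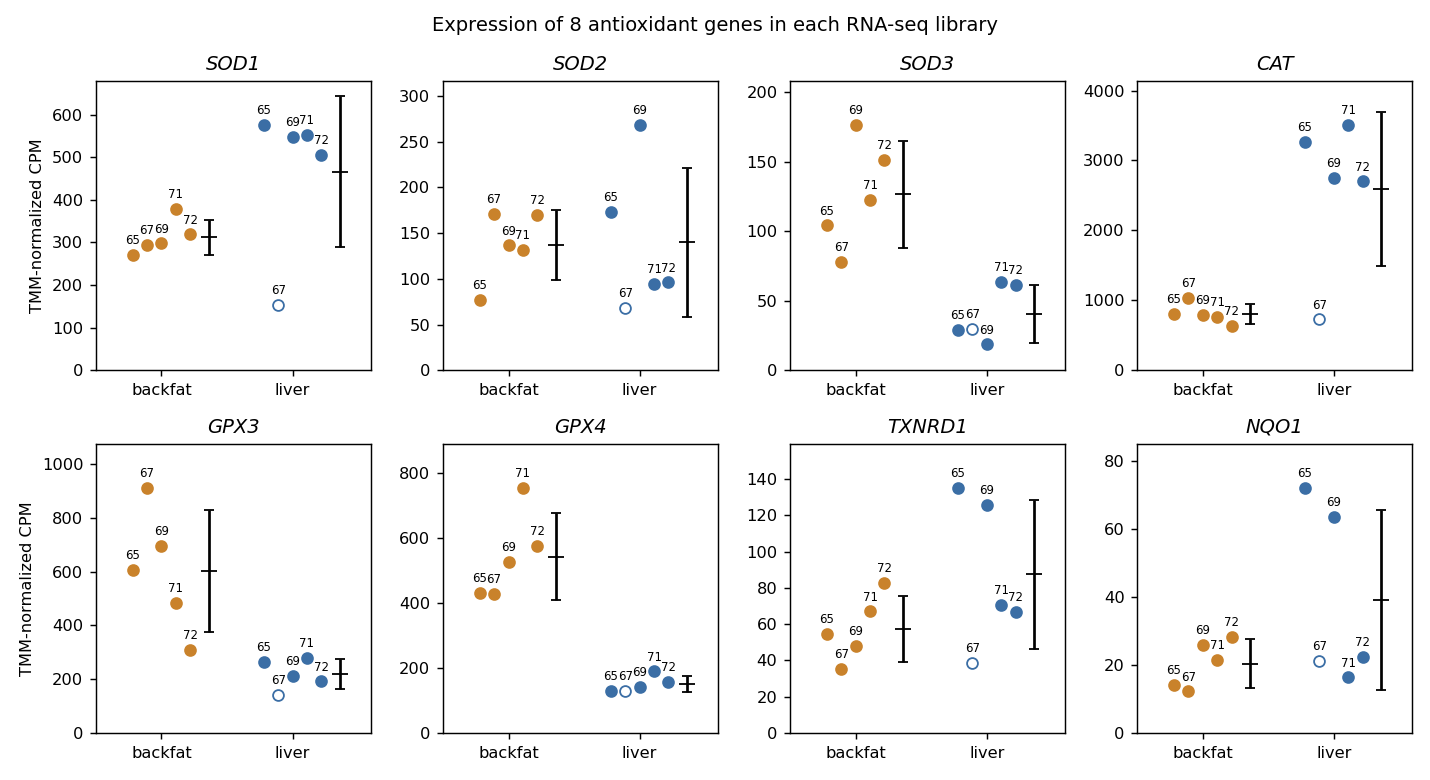
TMM-normalized CPM (vertical axes from 0, a scale for each gene) of 8 antioxidant genes in 5 backfat (orange) and 5 liver (blue) libraries, with the library number at each point, liver 67 as an open circle, and the mean and SD as black bars. GPX3, GPX4 and SOD3 have no overlap between tissues, while liver 67 lies inside the backfat range for CAT and below it for SOD1.

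Levels are given as TMM-normalized CPM, that is CPM after a further factor per library that sets the average difference of most genes to about 0. SOD3 (ENSSSCG00000028814, chr8:18796633-18802156) encodes the secreted dismutase. In backfat its level was 104, 78.1, 176, 123 and 151 in libraries 65, 67, 69, 71 and 72, and in liver it was 29.3, 29.5, 18.5, 63.7 and 61.5 in the same order. Every backfat library was above every liver library, and liver 71 and 72 were about equal and above the other livers. The means were 127 ± 38.6 and 40.5 ± 20.6 (SD, n = 5 each), a log2 fold change of 1.64 (SE 0.35, FDR 0.00153 by edgeR), or 3.13-fold. Ranges that did not overlap between tissues were found for 3 of the 8 genes and for 42.6% of all tested genes.

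SOD1 (ENSSSCG00000021355, chr13:195326573-195335273), the cytosolic dismutase, had levels of 270.5, 295, 298, 379 and 319 in the backfat libraries in number order. In liver 65, 67, 69, 71 and 72 the levels were 575, 153, 547, 552 and 505.5. The other 4 livers all exceeded every backfat library, and liver 67 lay under all of them. The means were 312 ± 41.0 in backfat and 466 ± 177 in liver (SD, n = 5), and the log2 fold change of −0.58 (SE 0.32) did not pass with edgeR (FDR 0.142). Without liver 67 it was −0.84 and passed (edgeR FDR 0.00207), while with library size as the only scaling it took the other sign, at 0.11.

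SOD2 (ENSSSCG00000040317, chr1:7679352-7689564), the mitochondrial dismutase, was at 76.7, 171, 137, 132 and 170 in backfat and at 173, 68.5, 268, 94.9 and 96.1 in liver, in number order. The liver range enclosed that of backfat, with liver 69 highest and liver 67 lowest of all 10 libraries. With means of 137 ± 38.5 and 140.2 ± 81.6 (SD, n = 5), the log2 fold change was −0.03 (SE 0.36) and did not pass (edgeR FDR 0.949). Without liver 67 it was −0.23 (edgeR FDR 0.575). Its sign was not fixed by these data, since library size alone, the fit without a filter, limma-voom and the replicate block each gave a positive value.

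The share of each isoenzyme in the summed SOD level, from counts per kilobase of exon within a library, does not depend on scaling between libraries. SOD1 made up 53.4, 54.0, 42.5, 55.4 and 45.6% of this sum in the backfat libraries in number order, and 77.6, 61.0, 72.4, 75.9 and 74.6% in the liver libraries. SOD3 made up 36.6, 25.5, 44.7, 31.9 and 38.5% in backfat and 7.02, 21.0, 4.36, 15.6 and 16.1% in liver. Neither share overlapped between tissues. Liver 67 was the liver library nearest to backfat in both. The mean SOD1 share was 50.2 ± 5.76% in backfat and 72.3 ± 6.58% in liver, a difference of −22.1 percentage points, and that of SOD3 was 35.5 ± 7.24% and 12.8 ± 6.91%, a difference of 22.6 points (SD, n = 5). For each, the two-sided exact permutation test gave p = 0.00794, the smallest value that 5 against 5 allows, and 0.0159 after adjustment over 4 shares. Without liver 67 the differences were −24.9 and 24.7 points (exact permutation, adjusted p = 0.0317 for each). From raw counts without exon length the differences were −16.4 and 14.7 points (exact permutation, adjusted p = 0.0159 for each). These shares are parts of 1 sum and are not independent of each other. With libraries paired by number, an exact sign-flip test gave an adjusted p of 0.125 for both, where the smallest raw p that 5 pairs allow is 0.0625. The SOD2 share was 14.4 ± 4.07% and 14.9 ± 6.15% (exact permutation p = 0.897, adjusted 0.897), a difference of −0.51 points that turned positive from raw counts.

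CAT (ENSSSCG00000013302, chr2:26493664-26533881) had the highest level per kilobase of the 8 in liver. Its level was 801, 1033, 792, 759 and 629 in backfat and 3264, 725, 2754, 3506 and 2702 in liver, in number order. The other 4 livers lay far above all backfat libraries, and liver 67 lay inside the backfat range. The means were 803 ± 146 and 2590 ± 1096 (SD, n = 5), with a log2 fold change of −1.69 (SE 0.41, edgeR FDR 0.00366), 3.23-fold higher in liver. Without liver 67 the log2 fold change was −1.97 (edgeR FDR 9.56e-05), still short of the DEG threshold, and those of SOD3, GPX3 and GPX4 were 1.51, 1.31 and 1.78, each past the FDR threshold. With library size alone that of CAT was −0.98 (edgeR FDR 0.0476). The median of the other 4 livers was 4.15 times the level in liver 67 for CAT 3.60 times for SOD1, 2.54 times for TXNRD1, 2.03 times for NQO1, 1.97 times for SOD2, 1.67 times for GPX3, 1.54 times for SOD3 and 1.15 times for GPX4. The same ratio was 3.82 for the hepatocyte marker sum, which is in CPM without TMM factors. The part of cell composition or RNA quality in these differences was not tested.

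GPX4 (ENSSSCG00000024052, chr2:77321568-77323931), the lipid hydroperoxide reductase, had the largest log2 fold change of the 8 with all libraries, while without liver 67 that of CAT was larger in size. In the backfat libraries its level was 430, 427, 527, 754 and 574, and in liver it was 130, 130, 142, 189 and 156, in number order. The tissues were fully apart, the liver libraries were close together, and library 71 was the highest in both tissues. The means were 542 ± 134 and 149 ± 24.8 (SD, n = 5), a log2 fold change of 1.86 (SE 0.23, edgeR FDR 2.1e-05) or 3.63-fold. Its coefficient of variation in liver was 16.6%, the smallest of the 8 genes there and beside a median of 33.0% over all genes tested.

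GPX3 (ENSSSCG00000036438, chr16:71980467-71989011), the secreted peroxidase, was at 608, 912, 696, 483 and 308 in backfat and at 265, 142, 211, 279 and 191 in liver, in number order. All backfat libraries exceeded all liver libraries, with backfat 72 close to liver 71. The means were 601 ± 227 and 218 ± 55.9 (SD, n = 5), a log2 fold change of 1.47 (SE 0.31, edgeR FDR 0.00146) or 2.76-fold. The backfat order of GPX3 was not that of GPX4: GPX3 was highest in backfat 67, where GPX4 was lowest and about equal to backfat 65. GPX3 accordingly made up 40.7 to 73.2% of the sum of GPX3 and GPX4 per kilobase in backfat and 58.3 to 72.3% in liver, and the mean shares of 57.2 ± 13.8% and 64.5 ± 5.33% did not pass an exact permutation test (n = 5 each, p = 0.317, adjusted 0.423). Their difference was −7.30 points, and −8.85 without liver 67. GPX3, GPX4 and SOD3 rose towards backfat beside markers of other cell types: the summed fibroblast and matrix markers were 57104 to 100758 CPM in backfat and 672 to 945 in liver, and endothelial markers 826 to 1634 and 80.5 to 181, while macrophage markers were 494 to 1010 and 724 to 1173. The part of these cell types in the levels was not tested.

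The ratio of CAT to the sum of GPX3 and GPX4 per kilobase, a comparison chosen after the values were seen and given with no test, was 0.231 to 0.278 in the 5 backfat libraries, with a median of 0.271. GPX1 was not analysed and is not in this sum, so the ratio does not cover all glutathione peroxidases. In liver it was 2.68 to 2.91 in 4 libraries and 0.973 in liver 67. Both tissues were thus narrow in this ratio apart from liver 67, which lay between them.

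**Figure D2:**
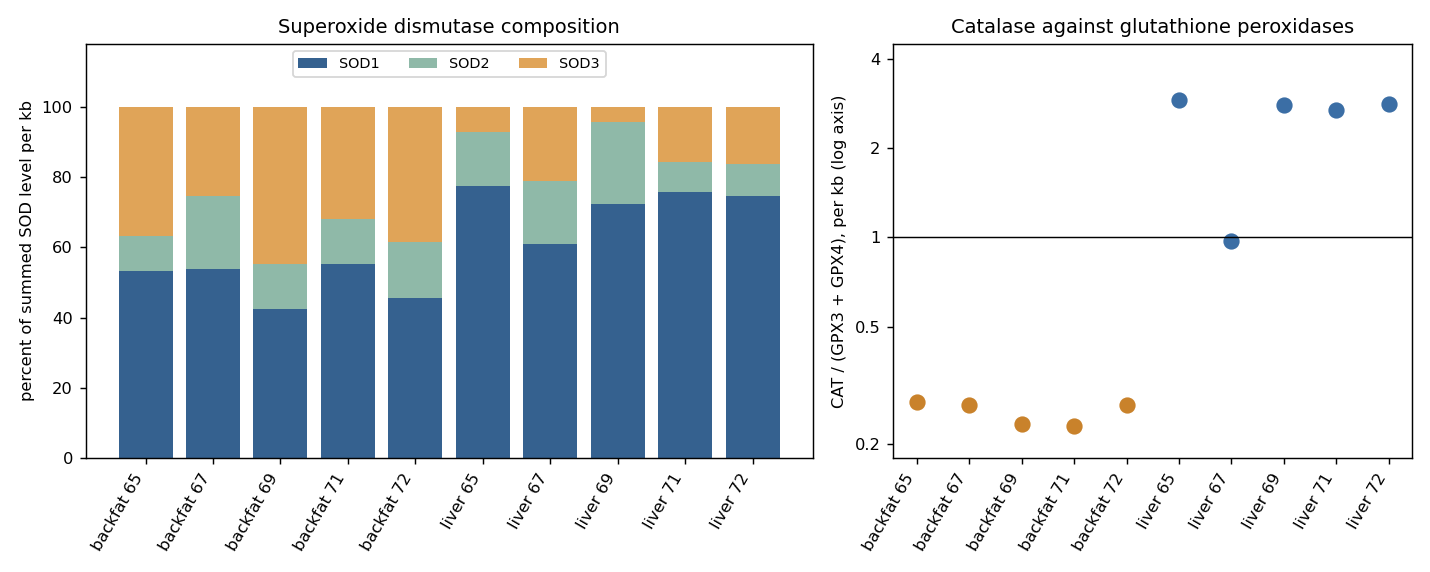
Left, the percent of the summed SOD level per kilobase taken by SOD1, SOD2 and SOD3 in each library. Right, the ratio of CAT to GPX3 plus GPX4 per kilobase, without GPX1 (log axis, backfat orange, liver blue, line at 1). SOD3 takes 25.5 to 44.7% in backfat and 4.36 to 21.0% in liver, and the ratio is under 0.3 in all backfat libraries and over 2.5 in the 4 livers other than liver 67.

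TXNRD1 (ENSSSCG00000000843, chr5:80170334-80213889), the thioredoxin reductase of the cytosol, was at 54.4, 35.1, 48.0, 67 and 82.5 in backfat and at 135, 38.6, 125, 70.6 and 66.9 in liver, in number order. The ranges overlapped, and liver 65 and 69 were the only libraries above 100. The log2 fold change of −0.61 (SE 0.33) did not pass (edgeR FDR 0.140), passed without liver 67 at −0.82 (edgeR FDR 0.0259), and was 0.027 with library size alone.

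NQO1 (ENSSSCG00000002754, chr6:17292962-17302593) was at 14.0, 12.2, 25.9, 21.5 and 28.2 in backfat and at 72.0, 21.1, 63.4, 16.3 and 22.3 in liver, in number order. Liver 65 and 69 again stood above the other 8 libraries, which overlapped between tissues. The log2 fold change of −0.94 (SE 0.42) did not pass (edgeR FDR 0.0787). It passed without liver 67, at −1.13 (edgeR FDR 0.0381), and without liver 71, at −1.16 (edgeR FDR 0.0302), so that 4 of the 8 genes were higher in liver without liver 67 and 2 without liver 71, against 1 with all libraries. Over all genes, 4730 of 16568 tested were higher in liver without liver 67 and 4381 of 16642 without liver 71.

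The spread within liver differed between the genes. The highest pair of liver libraries was 65 and 69 for SOD2, TXNRD1 and NQO1, as it was for 23.6% of all tested genes. The coefficient of variation in liver was 67.8% for NQO1, 58.2% for SOD2 and 47.2% for TXNRD1. A wide liver spread was not particular to these genes. It was 51.0% for SOD3, whose highest liver pair was 71 and 72. For CAT and SOD1, whose highest liver pair was 65 and 71, it was 42.3% and 38.0%. GPX3 and GPX4 were at 25.7% and 16.6%, and the liver median over all genes tested was 33.0%. In backfat the coefficient was 34.7%, 28.0% and 31.6% for NQO1, SOD2 and TXNRD1, and the backfat median over all genes was 23.2%. Summed acute-phase markers were 1836 CPM in liver 65, the lowest of the livers, and 3087 in liver 69, and their part was not tested.

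**Figure D3:**
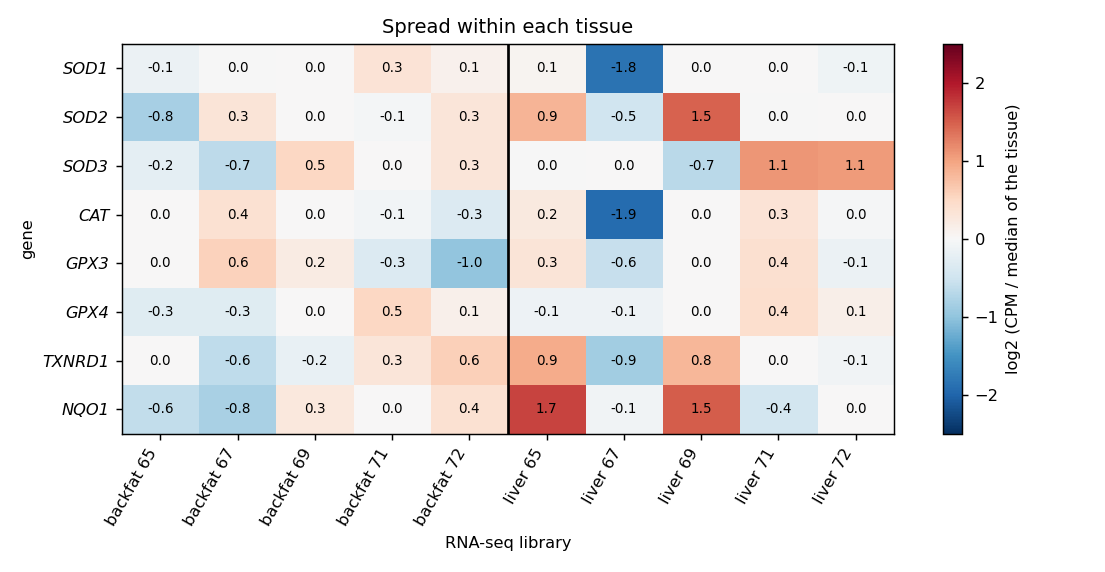
Log2 ratio of each library's CPM to the median of its own tissue, for 8 genes (vertical axis) in 10 libraries (horizontal axis), red above and blue below the median. Liver 67 is 1.9 below the liver median for CAT and 1.8 below it for SOD1, and liver 65 and 69 are above it for SOD2, TXNRD1 and NQO1.

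Between genes, levels were compared per kilobase of exon, so their order depends on the annotated exon lengths. In backfat the mean level per kilobase was 394 ± 149 for GPX3, 278 ± 68.8 for GPX4, 172 ± 31.3 for CAT, 102 ± 13.5 for SOD1, 73.9 ± 22.5 for SOD3, 29.6 ± 8.28 for SOD2, 10.7 ± 3.71 for NQO1 and 10.1 ± 3.18 for TXNRD1 (SD, n = 5). The ranges of neighbours in this order did not overlap between CAT and SOD1, SOD3 and SOD2, and SOD2 and NQO1, and overlapped for the others. By raw counts without exon length, SOD2 was above SOD3 in backfat 67, 71 and 72 and below it in backfat 65 and 69. In liver the order was CAT at 555 ± 235, SOD1 at 153 ± 58.1, GPX3 at 143 ± 36.6, GPX4 at 76.6 ± 12.7, SOD2 at 30.2 ± 17.6, SOD3 at 23.7 ± 12.1, NQO1 at 20.5 ± 13.9 and TXNRD1 at 15.3 ± 7.24. There, the ranges of neighbours overlapped except for GPX4 and SOD2, although CAT was above SOD1 and GPX3 above GPX4 within each of the 5 libraries. By mean level per kilobase, GPX3 ranked 86 among the 16275 genes in backfat and 354 in liver, and CAT ranked 188 in backfat and 91 in liver.

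**Figure D4:**
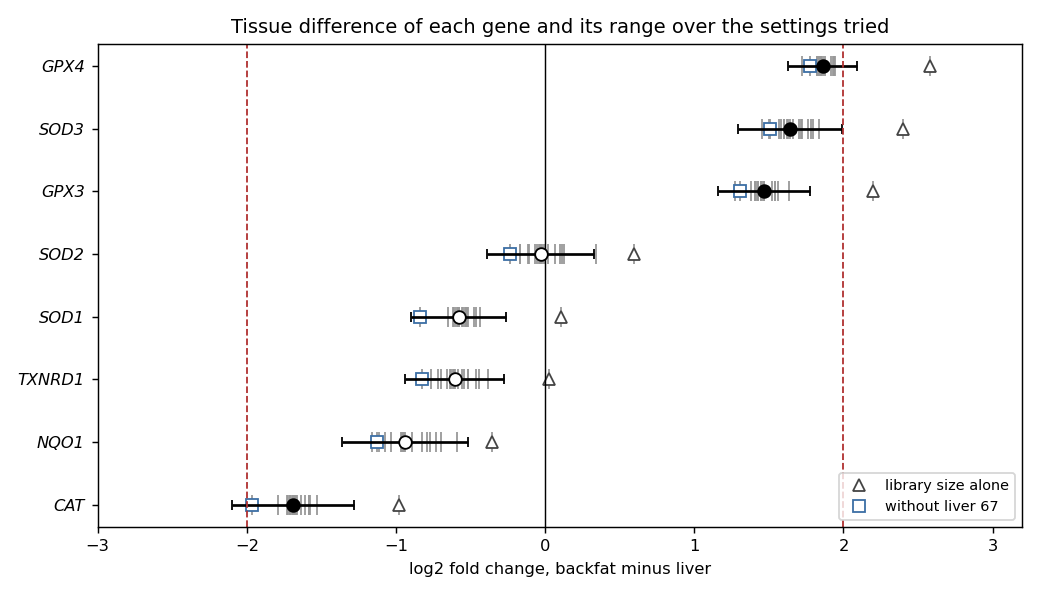
Log2 fold change, backfat minus liver, of the 8 genes with SE (circles, filled where the FDR is at most 0.05), under each alternative setting (grey ticks), without liver 67 (squares) and with library size alone (triangles). Dashed lines mark the DEG threshold of 2 in either direction; SOD3, GPX3 and GPX4 cross it only with library size alone, at 2.40, 2.20 and 2.58.

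Among the genes listed around these enzymes, most of those that passed the test were higher in liver, a split that depended on the scaling. In 7 lists of related genes, 83 distinct genes were tested, of which 46 were higher in liver, 20 were higher in backfat and 17 did not pass (edgeR FDR of at most 0.05). Over all genes tested, the corresponding shares were 27% towards liver and 28% towards backfat. The lists were chosen with earlier results of these data known. The split therefore describes the genes listed and cannot be judged against those shares. Scaled by library size alone, 30 list genes were higher in liver and 26 in backfat, and without liver 67 the counts were 47 and 19. As DEGs, 25 were higher in liver, the direction of 11.2% of all genes tested, and 7 were higher in backfat, the direction of 1814 of all 16275. With library size alone there were 18 and 14 such DEGs, and without liver 67 there were 27 and 8. The median log2 fold change of the 83 was −0.86.

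Of 13 peroxiredoxin and thioredoxin genes tested, 8 were higher in liver and 3 in backfat. PRDX3, the mitochondrial peroxiredoxin, was at 244 ± 50.7 CPM in backfat and 460 ± 74.4 in liver (SD, n = 5; log2 fold change −0.92, edgeR FDR 0.00328), a call lost with library size alone (−0.21, FDR 0.387). SESN2, a stress-induced sestrin, had a log2 fold change of −2.61. Those higher in backfat were PRDX2 (1.70), SESN1 (2.16) and TXNIP (2.73), of which PRDX2, a cytosolic peroxiredoxin, and SESN1 are named because the count was small. TXNIP, which binds thioredoxin and opposes it, was at 896 ± 622 CPM in backfat and 135 ± 65.5 in liver. Backfat 65 and 67 were far above the other backfat libraries, at 1185 and 1852 against 348 to 605.

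Among 11 glutathione genes, 5 were higher in liver and 2 in backfat. GCLC, the catalytic subunit of the enzyme that limits glutathione synthesis, was at 11.5 CPM in backfat and 242 in liver (log2 fold change −4.40, edgeR FDR 2.36e-06). The backfat pair was GPX7 (3.34), named because the count was small, and GPX8 (3.42), which are peroxidases of the endoplasmic reticulum that carry cysteine in place of selenocysteine.

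Of 15 other selenoprotein genes tested, 8 were higher in liver and 2 in backfat. The largest difference was in DIO1, a deiodinase that acts on thyroid hormones, at 0.700 CPM in backfat and 182 in liver (log2 fold change −8.03, edgeR FDR 6.41e-08). SELENON, a selenoprotein of the endoplasmic reticulum, and SELENOM were higher in backfat, by 1.76 and 1.28. SELENOF, the most abundant of this list per kilobase in liver, had a log2 fold change of −0.36 that did not pass, was positive with library size alone, at 0.35, and passed without liver 67 at −0.53 (edgeR FDR 0.0432).

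Of 12 genes of selenium supply and selenocysteine synthesis, 6 were higher in liver and 2 in backfat. CBS, which starts transsulfuration, was at 6.95 CPM in backfat and 212 in liver (log2 fold change −4.93). PSTK, a kinase in the synthesis of selenocysteine on its tRNA, was higher in backfat by 0.67 (edgeR FDR 0.0460) and lost this call in 13 alternatives, with FDR from 0.0519 to 0.121 in the 12 other than the test against the fold threshold; SEPHS1, named because the count was small, was higher by 0.51. TRNAU1AP, which associates with that tRNA, had a log2 fold change of −0.12 that did not pass and turned to 0.62 with library size alone and to 0.10 without liver 67.

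The NRF2 list, of the factor's regulators and textbook targets, was split, with 9 of 19 genes higher in liver and 7 in backfat. TALDO1 of the pentose phosphate pathway was at 624.8 CPM in backfat and 182 in liver (log2 fold change 1.78, edgeR FDR 1.25e-04). ME1, which makes NADPH from malate, was higher in backfat by 4.35, with backfat 71 and 72 at 413 and 306 and the other backfat libraries at 46.9 to 67.7. SQSTM1, an autophagy receptor that also binds KEAP1, was higher in liver by a log2 fold change of −0.71 (edgeR FDR 0.0236), a call lost in 7 of 19 alternatives. Apart from the test against the fold threshold, these were library size alone (−0.02, FDR 0.965), the replicate block (FDR 0.0558), no filter (FDR 0.0550), and leaving out backfat 71 (FDR 0.0635), backfat 72 (FDR 0.0538) or liver 65 (FDR 0.0730).

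Of 13 genes of oxidant-producing enzymes, 9 were higher in liver and 3 in backfat. MAOB, a mitochondrial monoamine oxidase, was at 1.03 CPM in backfat and 732 in liver (log2 fold change −9.47), and HAO1, a peroxisomal oxidase that forms hydrogen peroxide, had a log2 fold change of −9.96, which was −11.85 without backfat 69. NOX4, an oxidase that produces hydrogen peroxide, was at 6.39 in backfat and 0.158 in liver (log2 fold change 5.37, edgeR FDR 2.68e-06).

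Of 7 genes of copper, zinc and manganese handling, 6 were higher in liver, each as a DEG, and ATP7A, a copper exporter, was higher in backfat by 1.32 (edgeR FDR 0.00360). ATOX1, the copper chaperone of the secretory pathway, was at 28.3 CPM in backfat and 152 in liver (log2 fold change −2.43). The gene carrying the symbol MT3 was at 0.526 CPM in backfat and 940 in liver (log2 fold change −10.80, and −11.66 without backfat 69). Metallothionein genes are near-identical copies, and reads shared by such copies were not counted, so its level and symbol are uncertain.

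**Figure D5:**
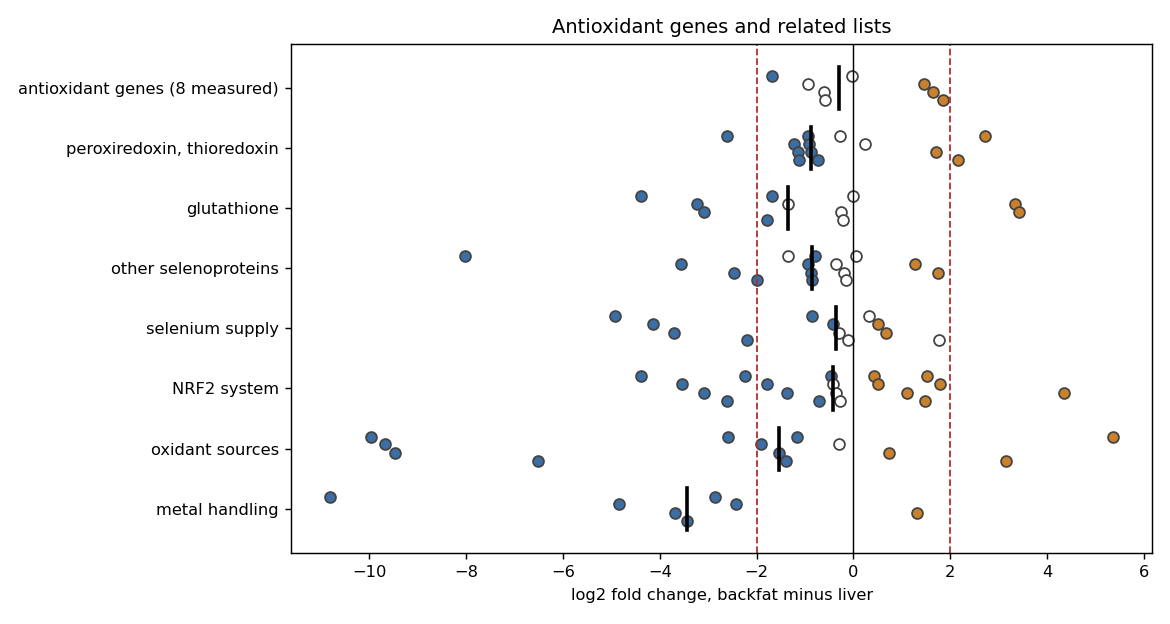
Log2 fold change, backfat minus liver, of the 8 antioxidant genes and of the tested genes of 7 related lists, 1 circle per gene, orange or blue where the FDR is at most 0.05 (higher in backfat or liver) and white otherwise. Black bars are medians, from −3.43 for metal handling to −0.30 for the 8 genes, and dashed lines mark 2 in either direction.

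Promoter windows of 300 bases, from 250 before to 50 after the annotated start, were searched on both strands for TGACNNNGC, the core of the element that NRF2 binds. It was present for 3 of the 10 genes, GPX4, SELENOP and NQO1, and in 12.3% of 19531 promoters of the same length. The number of CpG sites in this window was 39 for SOD1, 29 each for GPX1 and GPX4, 23 for SOD2 and 22 for NQO1. It was 20 for GPX3, 19 for CAT, 16 for SOD3 and 5 each for SELENOP and TXNRD1, beside a median of 16. These matches and CpG numbers are a description of the sequence at the annotated start. Whether transcription starts there, for TXNRD1 or the other genes, was not tested.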

How the data were processed

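RNA-seq was measured in 5 backfat and 5 liver libraries of 5 boars, and bisulfite sequencing in 10 others. The bisulfite files hold methylation by position in the read, with no genome position, and were not used here. The deposited table holds raw counts per gene: the authors aligned trimmed reads with HISAT2 to Sscrofa11.1 and counted exons with featureCounts 2.0.1 (Ensembl release 99), without strand and without multi-mapping or multi-overlap reads, so reads shared by near-identical copies or overlapping genes are lost. Levels per kilobase use the table's exon lengths. The gene intervals printed beside the Ensembl identifiers are from RefSeq and can differ from the Ensembl models counted. The RefSeq SOD3 gene spans 5524 bases and is listed with 1 exon, while the counted exon length was 1712 bases. Symbols were found for 15029 identifiers.

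Counts were filtered (filterByExpr), scaled (TMM) and tested with edgeR 4.0.16 in R 4.3.3, tissue being the only term (the study used DESeq2); FDR is Benjamini-Hochberg over 16275 genes. Shares were tested by exact permutation (scipy 1.17.1). Alternatives were DESeq2 1.42.0, limma-voom (3.58.1), other scalings and filters, a replicate block, and each library left out. Genes and lists were chosen with earlier results of these data known. From each related list, the gene with the largest log2 fold change towards each tissue (FDR of at most 0.05, mean of at least 10 counts) and the most abundant gene per kilobase in each tissue were named. A gene that this rule picks is not reported here. Markers were used as sums of CPM.

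Pairing rests on the same 5 numbers in both tissues' column names and on 5 boars in the study; deviations of same-numbered libraries correlated at 0.049 to 0.238, over 0.1 in 3 of 5 pairs, and other pairs at −0.225 to 0.131. Replicate numbers of the labels could not be matched to columns. No 2 libraries agreed within sampling noise. Assigned counts were 43820042 or more per library, so library spread, not depth, limits the precision for all 8 genes.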

Additional observations from a re-analysis of the deposited data

Results flagged for a closer look

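Of 70 groups of 5 libraries checked for a library far from the other 4, 7 had one. Chance gives about 1 in 20 for independent groups of normally distributed values. These groups share libraries and genes, so their number cannot be judged against that rate. In liver, library 67 was far below the others for SOD1, at 153 CPM against 505.5 to 575, for CAT, at 725 against 2702 to 3506, and for the ratio of CAT to GPX3 plus GPX4 per kilobase, at 0.973 against 2.68 to 2.91. It was far above the others for TRNAU1AP, at 27.8 CPM against 12.2 to 16.0. In the same library the hepatocyte marker sum was 19615 CPM and mitochondrially encoded genes took 44.5% of counts, and their part was not tested.

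In backfat, library 69 was far above the other 4 for 3 genes that were high in liver: HAO1, at 1.11 CPM against 0 to 0.259, MAOB, at 2.34 against 0.564 to 0.937, and MT3, at 1.48 against 0.189 to 0.360. The hepatocyte marker sum was also highest in this library, at 722 CPM against 215 to 311 in the other backfat libraries. Its part was not tested, and no call on the 8 antioxidant genes changed without backfat 69.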

How the results depend on the processing

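The calls on SOD3, GPX3, GPX4 and CAT held in 18 of 19 alternatives each, all but edgeR's test against the fold threshold (glmTreat, a log2 fold change of 2), which called 0 of the 8 in backfat and 0 in liver (4 and 19 of the related genes, with 4 backfat DEGs). With library size alone the median of all genes moved by 0.71 towards backfat: 3 of the 8 became backfat DEGs, CAT was at −0.98 (FDR 0.0476), related genes higher in liver numbered 30, those higher in backfat 26 and backfat DEGs 14, and signs turned for SOD1 (0.11), SOD2 (0.60), TXNRD1 (0.027), SELENOF (0.35) and TRNAU1AP (0.62). SOD2 also turned with no filter (0.019), limma-voom (0.12) and the replicate block (0.10). Leaving out 1 library gave 1 to 4 of the 8 higher in liver (4 without liver 67, 2 without liver 71), SOD2 from −0.23 to 0.34 (positive without backfat 65 at 0.13, liver 65 at 0.06 and liver 69 at 0.34), TRNAU1AP from −0.20 to 0.10 and a SOD2 share difference from −2.09 to 1.59 points (1.72 from raw counts). The replicate block changed no call on the 8 genes and lost SQSTM1; paired by number, the SOD1 and SOD3 share differences of −22.1 and 22.6 points had an adjusted p of 0.125. DEGs over all genes numbered 1126 in backfat and 1287 in liver with glmTreat, 871 and 981 with 10 counts in every library, 2874 and 1340 with library size alone (8225 and 2329 by FDR), and 2729 in liver with no filter. The causes of these changes were not tested.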
